A study of Mus musculus with 6 samples.

Results

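The adipocyte genes described here are Adipoq, Lep, Plin1, Fabp4, Lipe, Pnpla2, Cfd, Retn, Pparg and Cebpa, chosen by name as adipokines, lipid storage genes and transcription factors of fat cells. All 10 were present among the 24391 genes of the count table, and all 10 passed the filter on low counts that left 15937 genes for testing. RNA was sequenced from brachiocephalic arteries with atherosclerosis lesions of 6 mice: 3 were wild type (WT) and 3 were Col15a1 -/- (KO), all of C57BL/6 background and all given Western diet for 18 weeks. The series title restricts the deletion to smooth muscle cells, and the labels name neither the driver of the deletion nor the ages of the mice. The labelled tissue is a mixture of smooth muscle cells, epithelial cells, macrophages and others, so fat cells are not among the named types. Each value is an average over the artery and the tissue taken with it, in which fewer cells of a type and less RNA per cell cannot be told apart.

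Fat cells store fatty acids as triglyceride in a lipid droplet that is coated by perilipin 1 and release them again by lipolysis. Pparg and Cebpa encode the transcription factors that drive their differentiation and keep each other and the storage genes active. Mature fat cells also secrete adipokines, hormones that act on other tissues, and the fat around arteries is a recognised source of them.

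Total counts ran from 22223584 to 26982005 per library. Col15a1 itself averaged 494 ± 83.8 CPM (counts scaled to library size) over the WT libraries against 161 ± 60.6 CPM over the KO libraries (SD, n = 3 a group), and each KO library was below each WT library. WT 2 and KO 3 stood apart: the summed level of 10 sympathetic neuron markers was 3153 and 5893 CPM in them against 204 to 309 CPM in the other 4 libraries. The 45S ribosomal RNA gene Rn45s took 2.04% of counts in WT 2, 10.4% in KO 3 and 6.25% to 9.57% elsewhere. Among the labelled cell types, the smooth muscle markers summed to between 5340 and 14179 CPM and the macrophage markers to between 1219 and 3191 CPM, while 6 epithelial markers summed to no more than 20.5 CPM in any library.

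Sequences upstream of the start sites are shown for 5 of these genes because C/EBP factors and PPARG are known regulators of fat-cell promoters. The 5 include all 3 genes with a C/EBP-like match (described below), while Lipe, Pnpla2, Cfd and Retn are not printed. Whether these sequences relate to the levels was not tested. RefSeq start sites (GRCm38.p6) matched 9 of the 10 genes by symbol, with 12 sites in all; Fabp4 had no entry. Each line gives the 250 bases before a start, 5′ to 3′ on the gene's strand, with matches to the searched motifs in capitals. For Pparg the most downstream of its 3 listed starts is shown.
Adipoq, chr16:23146286-23146535, plus strand: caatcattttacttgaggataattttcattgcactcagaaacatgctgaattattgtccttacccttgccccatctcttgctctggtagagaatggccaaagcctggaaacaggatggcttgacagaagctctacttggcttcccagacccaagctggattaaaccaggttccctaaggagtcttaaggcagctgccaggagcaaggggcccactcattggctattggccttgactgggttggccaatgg
Plin1, chr7:79732777-79733026, minus strand: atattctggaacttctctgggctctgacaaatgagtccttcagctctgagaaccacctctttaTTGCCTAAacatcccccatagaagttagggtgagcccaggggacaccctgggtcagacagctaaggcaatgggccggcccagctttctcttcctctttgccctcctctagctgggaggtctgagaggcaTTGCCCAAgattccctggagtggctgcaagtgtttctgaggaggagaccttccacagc
Lep, chr6:29059971-29060220, plus strand: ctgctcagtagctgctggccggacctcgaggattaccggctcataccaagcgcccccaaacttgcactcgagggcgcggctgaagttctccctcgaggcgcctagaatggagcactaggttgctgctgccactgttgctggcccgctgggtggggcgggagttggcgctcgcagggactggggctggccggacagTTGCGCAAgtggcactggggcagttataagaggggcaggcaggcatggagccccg
Pparg, chr6:115421816-115422065, plus strand: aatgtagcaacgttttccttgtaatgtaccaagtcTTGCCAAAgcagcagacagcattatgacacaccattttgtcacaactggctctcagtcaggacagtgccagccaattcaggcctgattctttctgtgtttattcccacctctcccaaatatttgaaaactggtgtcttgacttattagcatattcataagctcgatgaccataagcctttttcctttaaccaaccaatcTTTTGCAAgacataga
Cebpa, chr7:35119043-35119292, plus strand: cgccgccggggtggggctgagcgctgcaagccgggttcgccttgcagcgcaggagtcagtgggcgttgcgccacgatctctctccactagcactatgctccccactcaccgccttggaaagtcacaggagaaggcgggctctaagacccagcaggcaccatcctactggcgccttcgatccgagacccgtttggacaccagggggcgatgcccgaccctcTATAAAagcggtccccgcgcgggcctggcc

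The motifs searched on both strands were TTGCNNAA (a C/EBP-like site), AGGTCA (the half-site of nuclear receptors), the direct repeat of that half-site with 1 base between the copies (bound by PPARG with its RXR partner, and overlapping the half-site search) and the TATA box. TTGCNNAA was found before 3 of the 12 starts, those of Lep, Plin1 and Pparg printed above, and before 9.57% of 32817 RefSeq starts. In Lep the match was the palindrome TTGCGCAA, 55 to 48 bases before the start, and in Plin1 the nearer of its 2 matches, TTGCCCAA, lay at 58 to 51 bases. Pparg held TTGCCAAA at 215 to 208 bases and TTTTGCAA, a match on the other strand, at 16 to 9 bases. The half-site was found before 2 starts, both the upstream starts of Pparg (14.0% of all starts), the direct repeat before 0 (0.0335%), and the TATA box before 2 (12.4%), among them that of Cebpa, where its letters TATAAA lay 30 to 25 bases before the start. Such matches are a description of the windows only, and no factor binding was measured.

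Of the 10 genes, 9 were higher and 1, Cebpa, lower in KO by edgeR's log2 fold change, with a median of 0.70. Over all genes tested 60.9% had a log2 fold change above 0, and the median was 0.07. None of the 10 passed the threshold of 0.05 in edgeR's quasi-likelihood test after Benjamini-Hochberg adjustment over all genes, as for all genes (0 of 15937; percent called 0). The count of these genes past the threshold was also 0 in DESeq2, where 63 genes of the whole table passed (0.395%), and in limma-voom, where none did. At an unadjusted p under 0.05 edgeR gave 1275 genes of the table, and Pnpla2 alone among the 10 (KO higher in 4.02% and lower in 3.98% of all genes at that level). In 5 of the 10 each KO library lay above each WT library, against 8.33% of all genes tested, and in 0 of the 10 each KO library lay below each WT library, against 8.38%. That count includes Plin1 by a margin of 92.0 against 91.9 CPM, and it was 4 under each of the 3 other scalings tried. The replicates are separate animals per the series design.

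**Figure D1:**
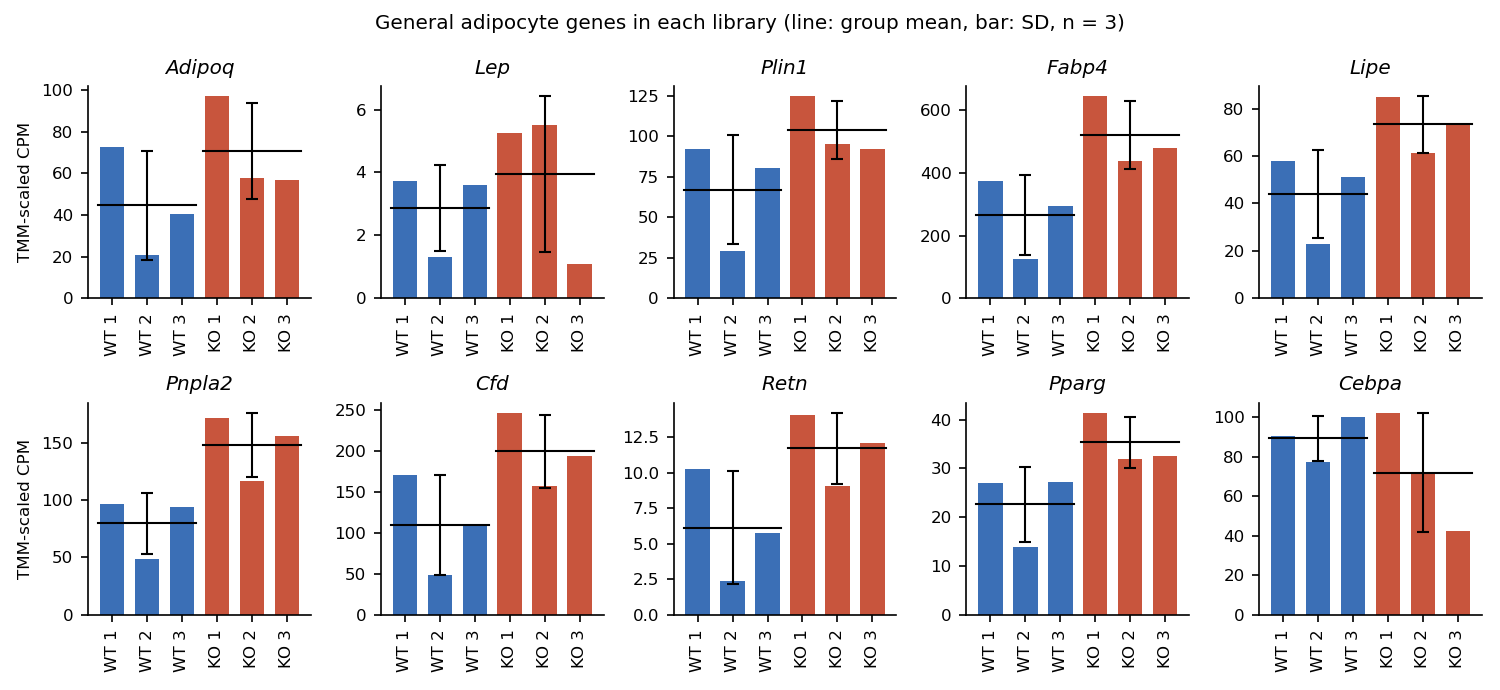
Bars give the TMM-scaled CPM (y axis, from 0) of each adipocyte gene in each library (x axis), blue for WT and red for KO; horizontal lines are group means and error bars the SD (n = 3). WT 2 is the lowest library for 8 genes and KO 1 the highest for 9, while Lep and Cebpa are lowest in KO 3.

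The lipid storage genes are taken first. Pnpla2 encodes adipose triglyceride lipase, which takes the first fatty acid from stored triglyceride (chromosome 7, 148641087 to 148646642, mm9). Libraries WT 1, WT 2 and WT 3 held 96.2, 48.9 and 93.7 CPM, and libraries KO 1, KO 2 and KO 3, in this order here and below, held 172, 117 and 155 CPM. Every KO library lay above every WT library, with the gap between KO 2 and WT 1. The log2 fold change was 0.89 (SE 0.30, edgeR unadjusted p 0.0230, adjusted p 0.587), leaving out each library in turn gave 0.64 to 1.05, and leaving out both neuronal libraries, WT 2 and KO 3, gave 0.59.

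Lipe encodes hormone-sensitive lipase, which acts on the diglyceride that Pnpla2 leaves (chromosome 7, 26164546 to 26181006, mm9). Its levels were 57.8, 22.8 and 51.3 CPM in the WT libraries and 85.0, 61.2 and 73.8 CPM in the KO libraries. The groups did not overlap, and WT 2 was at less than any other library. Its log2 fold change was 0.74 (SE 0.35, edgeR adjusted p 0.664), and 0.43 without WT 2. Of its 3272 exon bases, 809 are shared with 4732471J01Rik on the opposite strand; reads there were left out as ambiguous, so the level of Lipe is understated to an extent that was not tested.

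Plin1, the perilipin of the droplet surface (chromosome 7, 86866050 to 86877662, mm9), had WT levels of 91.9, 29.2 and 80.4 CPM and KO levels of 125, 95.1 and 92.0 CPM. WT 1 and KO 3 were level, and the separation came from WT 2 at the low end and KO 1 at the high end. Its log2 fold change was 0.63 (SE 0.42, edgeR adjusted p 0.757), and 0.27 without WT 2.

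Fabp4 encodes the fatty acid binding protein of fat cells, which macrophages and capillary endothelium also make (chromosome 3, 10204343 to 10208576, mm9). Its WT levels were 376, 125 and 294 CPM and its KO levels 645, 439 and 480 CPM, and the lowest KO library was above the highest WT library. The log2 fold change of 0.98 (SE 0.41, edgeR unadjusted p 0.0539, adjusted p 0.618) was the largest of the 10. Without WT 2 it was 0.64. Of 12 macrophage markers 10 were lower in KO, where 60.9% of all genes tested had a log2 fold change above 0. The other 2, Cd163 and Mrc1, were higher. Cd163 averaged 62.3 ± 25.4 CPM in WT and 123 ± 33.9 CPM in KO without overlap, and Mrc1 275 ± 75.0 and 302 ± 88.4 CPM. The summed level of the 12 markers was 2783 to 3191 CPM in WT and 1219 to 2173 CPM in KO. For 8 endothelial markers the sums overlapped: 944 to 1667 CPM over the WT libraries, 1166 to 1691 CPM over the KO libraries. Singly, 7 of the 8 were higher in KO and 1, Vwf, was lower. Without WT 2, or without KO 1, 4 were higher and 4 lower. Gpihbp1 alone had every KO library above every WT library (log2 fold change 1.60, edgeR unadjusted p 0.0339, adjusted p 0.599). Kdr was higher by 0.57 with overlap (edgeR unadjusted p 0.0420, adjusted p 0.617). The part of either cell type in the Fabp4 level was not tested.

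Among the adipokines, Adipoq encodes adiponectin, made almost only by fat cells (chromosome 16, 23146609 to 23158041, mm9). The WT libraries held 72.8, 21.0 and 40.6 CPM and the KO libraries 97.1, 58.0 and 56.8 CPM. WT 1 lay above KO 2 and KO 3, so the groups overlapped. KO exceeded WT by a log2 fold change of 0.66 (SE 0.47, edgeR adjusted p 0.777), by 0.30 without KO 1, 0.32 without WT 2 and 1.20 without WT 1.

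Cfd encodes adipsin, the complement factor D that fat cells secrete (chromosome 10, 79353598 to 79355405, mm9). The WT libraries held 171, 48.7 and 108 CPM and the KO libraries 247, 158 and 194 CPM, with WT 1 above KO 2. The fitted log2 fold change was 0.87 (SE 0.45, edgeR adjusted p 0.682), 0.51 without WT 2 and 1.34 without WT 1.

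Retn encodes resistin, a cysteine-rich hormone of mouse fat cells (chromosome 8, 3655770 to 3659818, mm9). It was low: WT levels were 10.3, 2.35 and 5.72 CPM and KO levels 14.0, 9.03 and 12.1 CPM. WT 1 again lay above KO 2, and WT 2 was 5.96-fold below KO 1, the widest span among the 10 genes. Counting error was smaller than this spread, with exact Poisson 95% intervals of 1.83 to 2.97 CPM in WT 2 and 12.5 to 15.6 CPM in KO 1. For Retn the log2 fold change was 0.94 (SE 0.52, edgeR adjusted p 0.692), 0.55 without WT 2 and 1.53 without WT 1.

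Lep encodes leptin, the satiety hormone whose level follows fat mass (chromosome 6, 29010221 to 29023876, mm9). It was the scarcest of the 10, with counts of 82, 39 and 93 in WT and 122, 126 and 28 in KO, or 3.73, 1.31 and 3.59 CPM and 5.26, 5.50 and 1.10 CPM. KO 1 and KO 2 were above every WT library, and KO 3 was below every WT library. The exact Poisson 95% intervals of KO 3 (0.734 to 1.60 CPM) and KO 2 (4.58 to 6.55 CPM) did not meet, so counting error does not span the distance between these KO animals; the intervals cover counting error only. For Lep the log2 fold change was 0.46 (SE 0.68, edgeR adjusted p 0.914), and it was 0.91 without KO 3 and 0.69 without WT 1 but 0.11 without WT 2, 0.14 without KO 1 and 0.15 without KO 2. KO 3 is also the library with the most sympathetic neuron transcripts, whose part in the Lep level was not tested.

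Of the transcription factors, Pparg encodes the nuclear receptor that fat-cell formation requires (chromosome 6, 115310969 to 115440419, mm9). Its WT levels were 26.9, 13.8 and 27.3 CPM and its KO levels 41.4, 31.9 and 32.6 CPM, and the groups did not overlap. Its log2 fold change was 0.64 (SE 0.29, edgeR adjusted p 0.638), and 0.38 without WT 2. The counts were summed over all its exons and do not separate its isoforms.

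Cebpa encodes C/EBPα, which fat cells, liver and myeloid cells use (chromosome 7, 35904312 to 35906951, mm9, a single exon). WT libraries held 90.6, 77.5 and 100.1 CPM and KO libraries 102, 71.1 and 42.4 CPM. KO 1 was the highest and KO 3 the lowest of all libraries, and WT 2 was the lowest WT library but lay above KO 2 and KO 3. KO was lower by a log2 fold change of -0.31 (SE 0.32, edgeR adjusted p 0.865), -0.04 without KO 3 and -0.72 without KO 1. The macrophage markers were also lowest in KO 3, at a sum of 1219 CPM. In KO 1, where Cebpa was highest, they summed to 2095 CPM, against 2783 to 3191 CPM in the WT libraries. The part of macrophages in the Cebpa level was not tested.

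**Figure D2:**
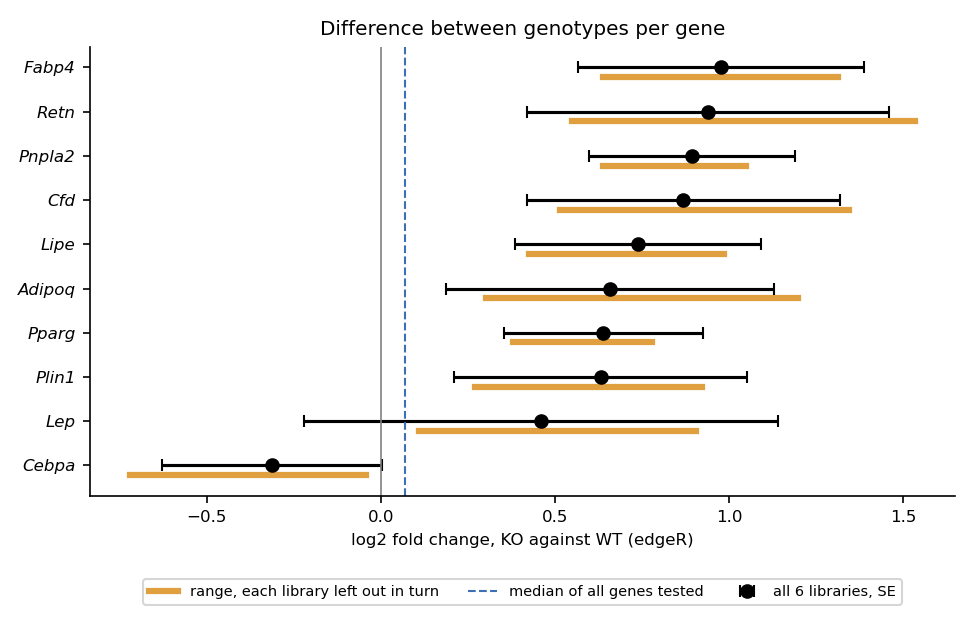
Points give edgeR's log2 fold change (x axis, KO against WT) of each gene with its SE, orange bars its range when each library is left out in turn, and the dashed line the median over all genes tested (0.07). Cebpa alone lies below 0, and the bars of Adipoq, Lep and Plin1 reach 0.30, 0.11 and 0.27.

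Levels can be compared between genes only per kilobase of exon (RPKM, from TMM-scaled CPM). In WT the order was Fabp4 at 413 ± 199 RPKM, Cfd at 118 ± 65.8, then Adipoq at 36.3 ± 21.2, Plin1 at 35.1 ± 17.4, Cebpa at 33.9 ± 4.29 and Pnpla2 at 29.3 ± 9.79 RPKM (SD, n = 3). These last 4 differed from each other by less than the larger of their SDs. Lipe followed at 13.4 ± 5.70, Pparg at 9.77 ± 3.31, Retn at 4.76 ± 3.09 and Lep at 0.884 ± 0.417 RPKM. In KO the ends of the order were the same, with Fabp4 at 813 ± 170 RPKM and Lep at 1.21 ± 0.759 RPKM, while Cebpa, at 27.3 ± 11.3 RPKM, stood below Adipoq (57.3 ± 18.6), Pnpla2 (54.4 ± 10.4) and Plin1 (54.3 ± 9.48). The share of all counts taken by the 10 genes together was 0.0986%, 0.0431% and 0.0773% for the WT libraries and 0.154%, 0.103% and 0.110% for the KO libraries.

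The genes varied together over the libraries. WT 2 was the lowest library for 8 of the 10 and KO 1 the highest for 9, against 21.1% and 15.0% of all genes tested. Centred on each gene's own mean, the log2 CPM averaged over the 10 genes was 0.20, -1.18 and -0.09 in WT and 0.73, 0.25 and 0.10 in KO. Of the single genes, Plin1 was nearest to this average, with a root mean square difference of 0.13 (log2, 6 libraries), followed by Pparg at 0.15 and Lipe at 0.16. Cebpa at 0.68 and Lep at 0.67 were farthest, and Retn was next at 0.34. The skeletal muscle markers were also highest in KO 1, at 328 CPM against at most 85.4 CPM elsewhere; their part in the fat-cell values was not tested.

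**Figure D3:**
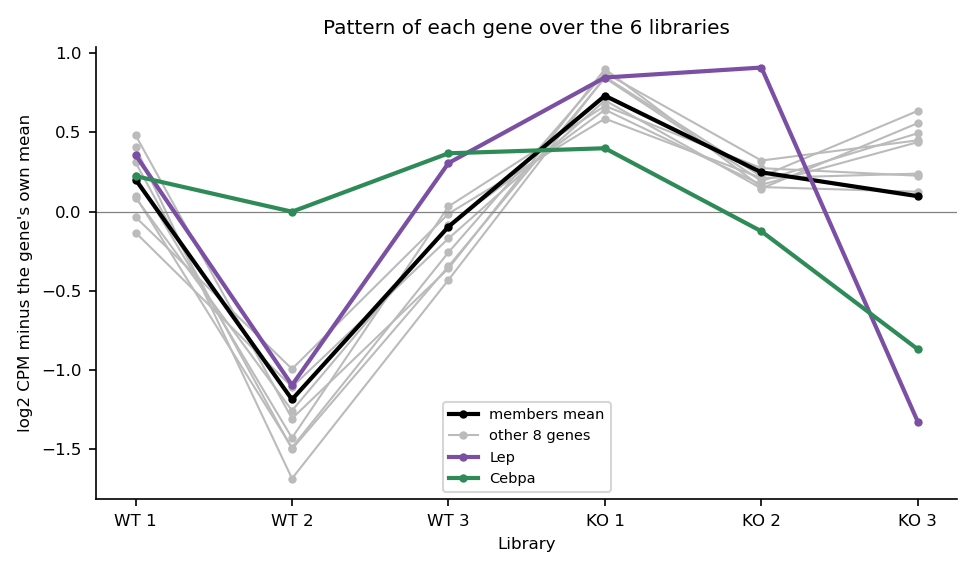
Each line joins the values of a gene over the 6 libraries (x axis) as log2 CPM minus the gene's own mean (y axis); the order of libraries within a group has no meaning. The mean of the 10 genes (black) is -1.18 in WT 2 and 0.73 in KO 1, and Lep (purple) and Cebpa (green) leave the others in KO 3.

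Ratios to Adipoq within a library show which genes kept step with it, free of scaling between libraries. Over the 6 libraries the log2 count ratio of Cfd to Adipoq spanned 0.56, while the log2 level of Cfd spanned 2.34. Plin1 spanned 0.65, Lipe and Fabp4 0.71 each, Pparg 0.86, Retn 0.92 and Pnpla2 1.05 in their ratios, against 1.58 to 2.57 in their levels. Lep and Cebpa did not keep step, with ratio spans of 2.29 and 2.30.

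Between the genotypes, the Plin1 ratio was 0.60 ± 0.34 in WT and 0.59 ± 0.20 in KO, and the Lipe ratio 0.04 ± 0.34 and 0.09 ± 0.29 (log2, SD, n = 3), differences smaller than the spread. The ratio of Retn was -2.94 ± 0.19 in WT and -2.57 ± 0.30 in KO, and the groups did not overlap, by a margin of -2.82 in WT 1 against -2.79 in KO 1. For Cebpa it was 0.32, 1.88 and 1.30 in WT and 0.07, 0.30 and -0.42 in KO, so that each KO library lay below each WT library, again narrowly. The ratios of the other 5 genes, Pnpla2 and Fabp4 among them, overlapped between the groups. No test was made on these ratios.

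**Figure D4:**
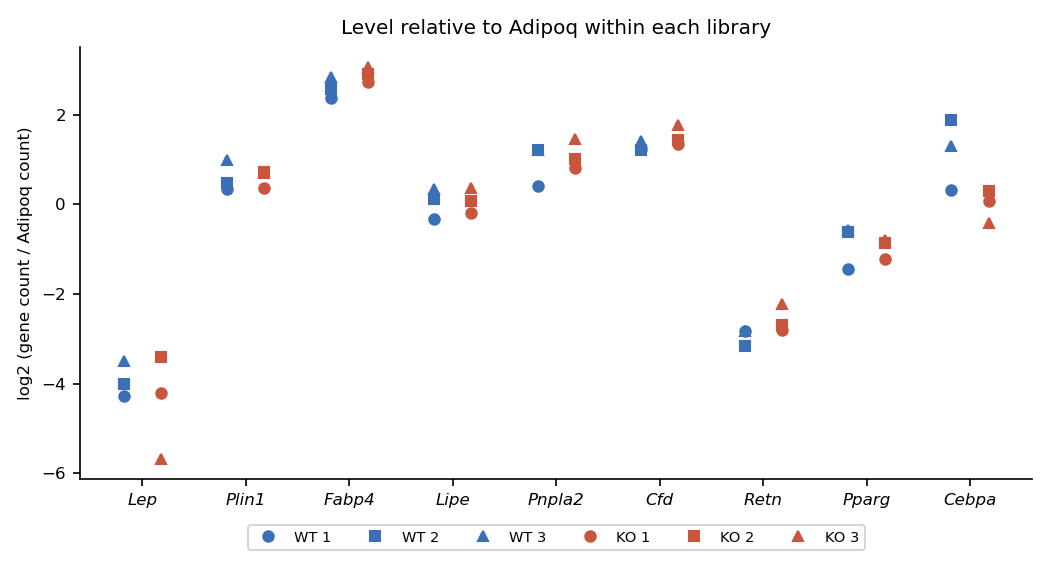
Symbols give the log2 ratio of a gene's count to the Adipoq count (y axis) in each library, for the 9 other genes (x axis), blue for WT and red for KO. Most genes keep a narrow band, while Lep is at -5.68 in KO 3 and Cebpa reaches 1.88 in WT 2.

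Paralogues of the adipocyte genes did not share these patterns throughout. They are not a set of genes from other cells, since Plin4, Plin5, Cebpb and Cebpd also stand in fat-cell lists described below. Which cells made the paralogues here was not tested. Fabp5, a fatty acid binding protein that macrophages and skin make, had WT levels of 240, 257 and 303 CPM and KO levels of 171, 137 and 124 CPM, opposite to Fabp4. The count ratio of Fabp4 to Fabp5 was 1.57, 0.487 and 0.971 for the WT libraries and 3.77, 3.21 and 3.86 for the KO libraries. It was higher in every KO library (log2 difference 1.99, two-sided exact permutation p 0.1, the smallest that 3 against 3 libraries allow). Fabp5 had been seen to be lower in KO before the ratio was formed, so the ratio is no separate evidence.

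Plin2, the perilipin of foam cells and many other cells, averaged 248 ± 43.9 CPM over WT and 245 ± 31.8 CPM over KO libraries (SD, n = 3), and the log2 ratio of Plin1 to Plin2 was -2.03 ± 0.69 in WT and -1.24 ± 0.10 in KO without overlap (exact permutation p 0.1). Among the nuclear receptors, Ppara, which drives fatty acid oxidation, had WT levels of 23.7, 16.6 and 24.9 CPM and KO levels of 48.9, 37.1 and 49.8 CPM, and the ratio of Pparg to it overlapped (exact permutation p 0.3). Ppard was at 19.8 ± 4.80 and 18.4 ± 4.25 CPM, and each KO library lay above each WT library in the ratio of Pparg to it (exact permutation p 0.1). For Cebpa and its relative Cebpb, which acts earlier in fat-cell formation, the log2 ratio was 2.05 ± 0.08 in WT and 1.93 ± 0.56 in KO (exact permutation p 0.7). The remaining ratios, Fabp4 to Fabp3, Pnpla2 to Pnpla3 and Retn to Retnla, overlapped, with exact permutation p of 0.8, 0.7 and 1.0; these make 8 ratios in all, none adjusted, and none could pass a threshold of 0.05.

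The other fat-cell genes were taken from lists, and no gene of any of them passed in edgeR, while DESeq2 passed 1 of 19 in the synthesis list, 1 of 13 transcription factors and 3 of 14 paralogues tested, against 0.395% of all genes. All 19 genes of triglyceride synthesis and uptake were higher in KO (60.9% of all genes were higher), with a median log2 fold change of 0.67. Of these, 8 were at an unadjusted p under 0.05 in edgeR (KO higher in 4.02% of all genes). In 11 every KO library lay above every WT library (8.33% of all genes). Slc2a4, the insulin-regulated glucose transporter, had WT levels of 22.1, 13.0 and 21.9 CPM and KO levels of 39.2, 41.8 and 35.1 CPM. Aqp7, the glycerol channel that serves lipolysis, was at 8.82 ± 3.82 and 20.9 ± 5.26 CPM, and Gpam, which starts glycerolipid synthesis, at 62.3 ± 1.41 and 105 ± 30.2 CPM. In WT 2, Gpam and Lpin1 were at 62.0 and 66.3 CPM, within narrow WT ranges of 61.1 to 63.9 and 66.3 to 68.5 CPM.

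All 11 droplet and lipolysis partners were higher as well (60.9% of all genes were higher), with a median of 0.42. Of these, 4 were at an unadjusted p under 0.05 in edgeR (4.02% of all genes). Every KO library lay above every WT library in 5 (8.33%). The lowest, Abhd5, was at 0.06, near the median of all genes (0.07). The genes named next were picked for small unadjusted p. The droplet protein gene Cidec averaged 34.0 ± 17.1 CPM over WT and 74.9 ± 12.9 CPM over KO libraries, and Adrb3, the receptor through which noradrenaline starts lipolysis in mouse fat, at 12.2 ± 5.59 and 26.7 ± 3.56 CPM. Without WT 2 and KO 3, the neuronal libraries, 9 of 11 were higher, and 18 of 19 in the synthesis list, while the 10 adipocyte genes stayed at 9 higher with a median of 0.49.

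Lists of transcription factors, adipokines, receptors and progenitors had lower medians than the 10 genes, and no test compared the lists. Of 13 other adipogenic transcription factors 8 were higher, with a median of 0.05, 3 at an unadjusted p under 0.05 and 4 with every KO library above every WT library (4.02% and 8.33% of all genes); 5 were higher without WT 2 or without KO 1, and 11 without KO 3. Mlxipl, the carbohydrate-responsive factor of lipid synthesis, was at 13.5 ± 2.94 and 32.8 ± 8.41 CPM. Of 8 other adipokines tested 6 were higher (median 0.25, 1 at an unadjusted p under 0.05, 3 without overlap). Of 10 receptors and insulin signalling genes 8 were higher (median 0.22), with 3 at an unadjusted p under 0.05 and 3, Insr, Irs1 and Adipor2, with every KO library above every WT library, against the same 4.02% and 8.33%. The leptin receptor gene Lepr was at 18.3 ± 6.56 and 27.4 ± 3.06 CPM, and the adiponectin receptor gene Adipor2 at 136 ± 26.6 and 189 ± 18.2 CPM. Progenitor genes of fat were evenly divided, 4 higher and 4 lower with a median of 0.03, but 6 were higher without WT 1, 3 without KO 2, 2 without WT 2 and 2 without both neuronal libraries.

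**Figure D5:**
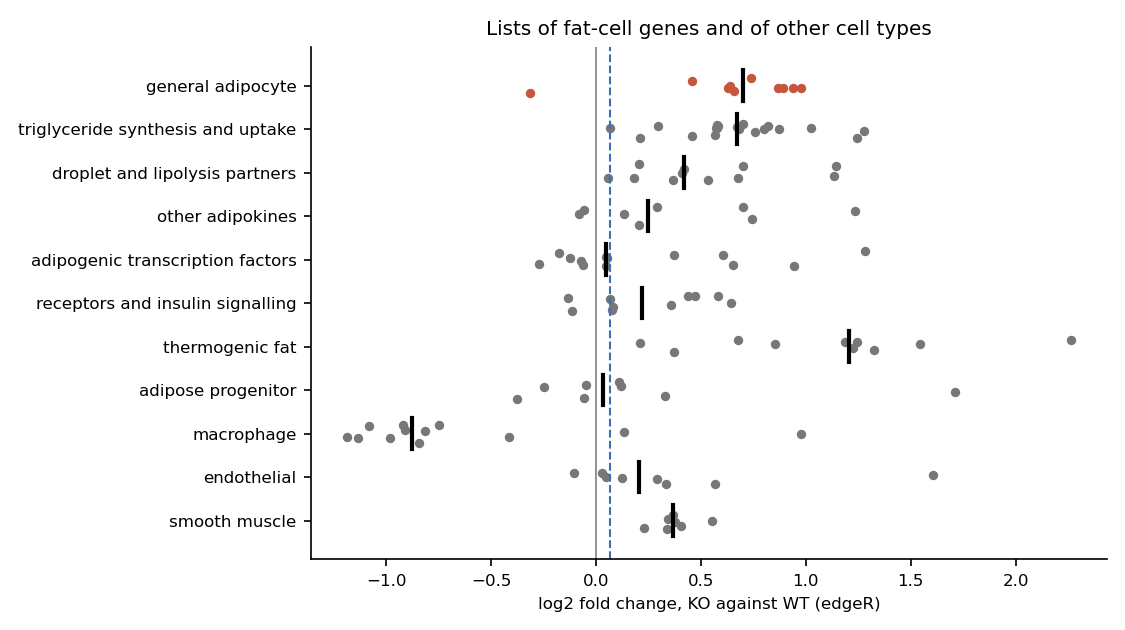
Each point is a gene's log2 fold change (x axis, KO against WT, edgeR) in its list (y axis), red for the 10 adipocyte genes; black bars are list medians and the dashed line the median of all genes tested. The adipocyte median is 0.70, that of triglyceride synthesis 0.67, of thermogenic fat 1.21 and of macrophage markers -0.88.

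Thermogenic fat genes were present beside the general ones. Of 11 listed, all 10 tested were higher in KO with a median of 1.21 (60.9% of all genes were higher), and 9 without KO 1. Zic1 was too low to test, at no more than 0.0909 CPM in any library, and Lhx8 was near the floor, at 0.0873 to 0.604 CPM. The count ratio of Ucp1, the uncoupling protein of brown fat, to Adipoq was 1.67, 1.20 and 2.35 for the WT libraries and 1.98, 3.88 and 5.08 for the KO libraries, with KO 1 within the WT range (exact permutation p 0.2).

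The 8 genes outside the 10 whose pattern over the 6 libraries was nearest to their average, among 14697 genes at 1 CPM or more, were Klhdc7a, Cd1d1, Mrap, Tusc5, Slc22a3, Scd1, Pcx and Eppk1. Their root mean square differences ran from 0.10 to 0.14 (log2). Scd1, the stearoyl-CoA desaturase, was the most abundant of them, with WT levels of 4462, 1868 and 3822 CPM and KO levels of 5344, 4762 and 3831 CPM. Tusc5, which acts in glucose transporter traffic of fat cells, had WT levels of 28.0, 12.2 and 25.4 CPM and KO levels of 38.3, 27.1 and 23.5 CPM, and Mrap, the accessory protein of melanocortin receptors, at 10.7, 3.60 and 8.35 CPM and 12.5, 9.86 and 10.3 CPM. WT 2 was the lowest library for all 8 of them, which follows from choosing them by nearness to an average that is itself lowest in WT 2.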

How the data were processed

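The values are raw read counts per gene, deposited by the authors without normalization; exon reads were summed by gene name on a UCSC mm9 annotation (featureCounts, release 1.4.6-p4, per the file headers), with no strand, pairing or multi-mapping option. STAR 3.0, CASAVA, Subread and DESeq2 are also named in the submitters' processing notes. A deposited summary of alignment counts put 32.6% to 36.9% of alignments in genes.

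KO was compared with WT in edgeR 4.0.16 (R 4.3.3; TMM, filterByExpr with a minimum count of 10, glmQLFTest, two-sided, Benjamini-Hochberg over 15937 genes, threshold 0.05), tested on simulated data. SEs were derived from the F statistic. CPM are TMM-scaled, log2 CPM carry a prior count of 2, and RPKM use the deposited exon length. DESeq2 1.42.0, limma-voom (limma 3.58.1), other scalings, filters, left-out libraries and a replicate block were alternatives.

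The members, lists and rules were chosen with earlier results of these data known. Named genes were the members, Col15a1, paralogues, cell type markers, up to 4 genes per list with the smallest unadjusted p, and the 8 genes nearest in pattern. Ratios to paralogues and Ucp1 were added after values were seen. Lists not described above were mesothelium (3 genes, summed level 2.45 to 13.5 CPM), T cells and thymocytes (5 genes, 4.77 to 33.0 CPM), whose sums overlapped between the groups.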

Additional observations from a re-analysis of the deposited data

How the results depend on the processing

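The 10 adipocyte genes stayed at 9 higher and 1 lower in each of the 15 alternatives, each gene kept the sign of its log2 fold change, and the number past the threshold was 0 throughout. Their adjusted p ran from 0.208 (Pnpla2 in DESeq2) to 1.00. The median log2 fold change was 0.70, ran from 0.66 to 0.82 with other scalings, tools and filters, and was 0.49 without WT 2 and KO 3. With a library left out in turn it ran from 0.40 (without WT 2) to 1.02 (without WT 1), with 9 genes higher each time (range 9 to 9) and 0 called (range 0 to 0). Among all genes tested 0 passed in edgeR, 0 to 0 with a library left out. DESeq2 called 63, 33 higher and 30 lower, and 1 gene, Gbp2b, passed in edgeR without WT 2 and KO 3; the cause was not tested.

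With the replicate block the median of the 10 genes was 0.81, and 0 of them and 0 of all genes passed. The replicate numbers have no stated meaning, and the deviations of same-numbered libraries correlated at 0.43, -0.68 and -0.58. The highest correlation, 0.77, was between the neuronal libraries WT 2 and KO 3, which carry different numbers. Whether the numbers pair the animals therefore cannot be told from these values. Counts were lowest for Lep, at 28 to 126 a library, where the spread between animals still exceeded counting error. The median over all genes moved from 0.07 to 0.02 with total counts, and the share with a positive log2 fold change from 60.9% to 53.1%.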
